A study of Homo sapiens with 6 samples.

Results

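In the G401 cell line, 668 genomic regions carried an H3K27ac contact anchor at day 0 and none at day 3 of SMARCB1 re-expression, and they are called day-0-only anchors here. An anchor is a stretch of the genome that the authors listed as one end of a chromatin loop, a pair of regions on the same chromosome joined by paired-end tags (PETs). Anchors of all 6 libraries were merged wherever they overlapped by 1 bp or more, which gave 30001 regions. Of these, 7658 held a day 0 H3K27ac anchor, and 668 of the 7658 held no day 3 H3K27ac anchor. The 668 were then divided by ARID1A: 267 held a day 3 ARID1A anchor and the remainder did not. The other 6990 day 0 regions, called lasting anchors, also held a day 3 H3K27ac anchor.

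The assay was HiChIP, which joins DNA segments that lie close together in the nucleus and then pulls down the joined fragments with an antibody. The cells, an established line from a human rhabdoid tumour, were labelled SMARCB1 -/- at the start and carried an inducible SMARCB1. There were 3 groups of 2 libraries: ARID1A at day 3 and H3K27ac at day 3, both labelled SMARCB1 +/+ and treated with doxycycline at 1 μg/ml, and H3K27ac at day 0, labelled SMARCB1 -/-. Doxycycline, time and SMARCB1 changed together between day 0 and day 3, so their parts cannot be told apart. ARID1A at day 0 was not analysed here.

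SMARCB1 is a core subunit of SWI/SNF, an ATP-driven complex that moves and evicts nucleosomes, and ARID1A is the large subunit that defines the canonical BAF form of that complex. Loss of SMARCB1 is the hallmark lesion of rhabdoid tumours. H3K27ac marks active promoters and enhancers, and unusually broad, strongly marked stretches are known as super-enhancers. Such stretches often lie near genes that define a cell's identity or drive its growth.

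The ARID1A libraries held 435210 and 467487 PETs and the day 3 H3K27ac libraries 929128 and 982141, against 301703 and 253502 in the day 0 H3K27ac libraries. Replicates of a group listed nearly the same anchors: 658 of the 668 day-0-only regions had an anchor in both day 0 libraries. The labels do not say whether the replicates are separate cultures, and the p-values therefore rest on a spread between libraries that may be technical. Levels are given as CPM, the PETs of a region scaled to 1e+06 PETs in loops between merged regions of that library.

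The 668 were chosen by the called anchors of both H3K27ac groups, so their presence at day 0 and their absence at day 3 is the rule and not a result. A region without a day 3 anchor has no listed day 3 loop, which is not a measurement of 0 contacts, and no day 3 over day 0 fold is given for it. Some regions lay close to the edge of the rule. Just inside it, 23 members abut a day 3 anchor with 0 bp between them, such as chr17:1352063-1357446 (hg19), with 20 and 18 day 0 PETs, and chr1:2153611-2160069, with 61 and 58. Just outside it, chr3:115988639-116010467 counts as lasting because 106 bp of its day 0 anchor lie under a day 3 anchor; it held 56 and 47 day 0 PETs. A further 35 lasting regions have no day 0 anchor that a day 3 anchor touches and were joined to one through an anchor of another group.

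Most day-0-only anchors were small, and 598 (89.5%) had a day 3 H3K27ac anchor within 50 kb. Their median day 0 width was 5264 bp (range 2289 to 63775 bp), against 5751.5 bp for lasting anchors. A day 3 H3K27ac anchor lay within 10 kb of 294 members (44.0%) and within 100 kb of 651 (97.5%), at a median distance of 12426 bp. These distances count any day 3 H3K27ac anchor, also one not called at day 0, and were not set against those of other regions. The median member had 25 and 21.5 PETs in the day 0 libraries, against 29 and 25 for the median lasting anchor. Per kb of day 0 width the medians were 19.5 CPM for members and 18.3 CPM for lasting anchors. By that description the typical member resembled the typical lasting anchor.

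**Figure D1:**
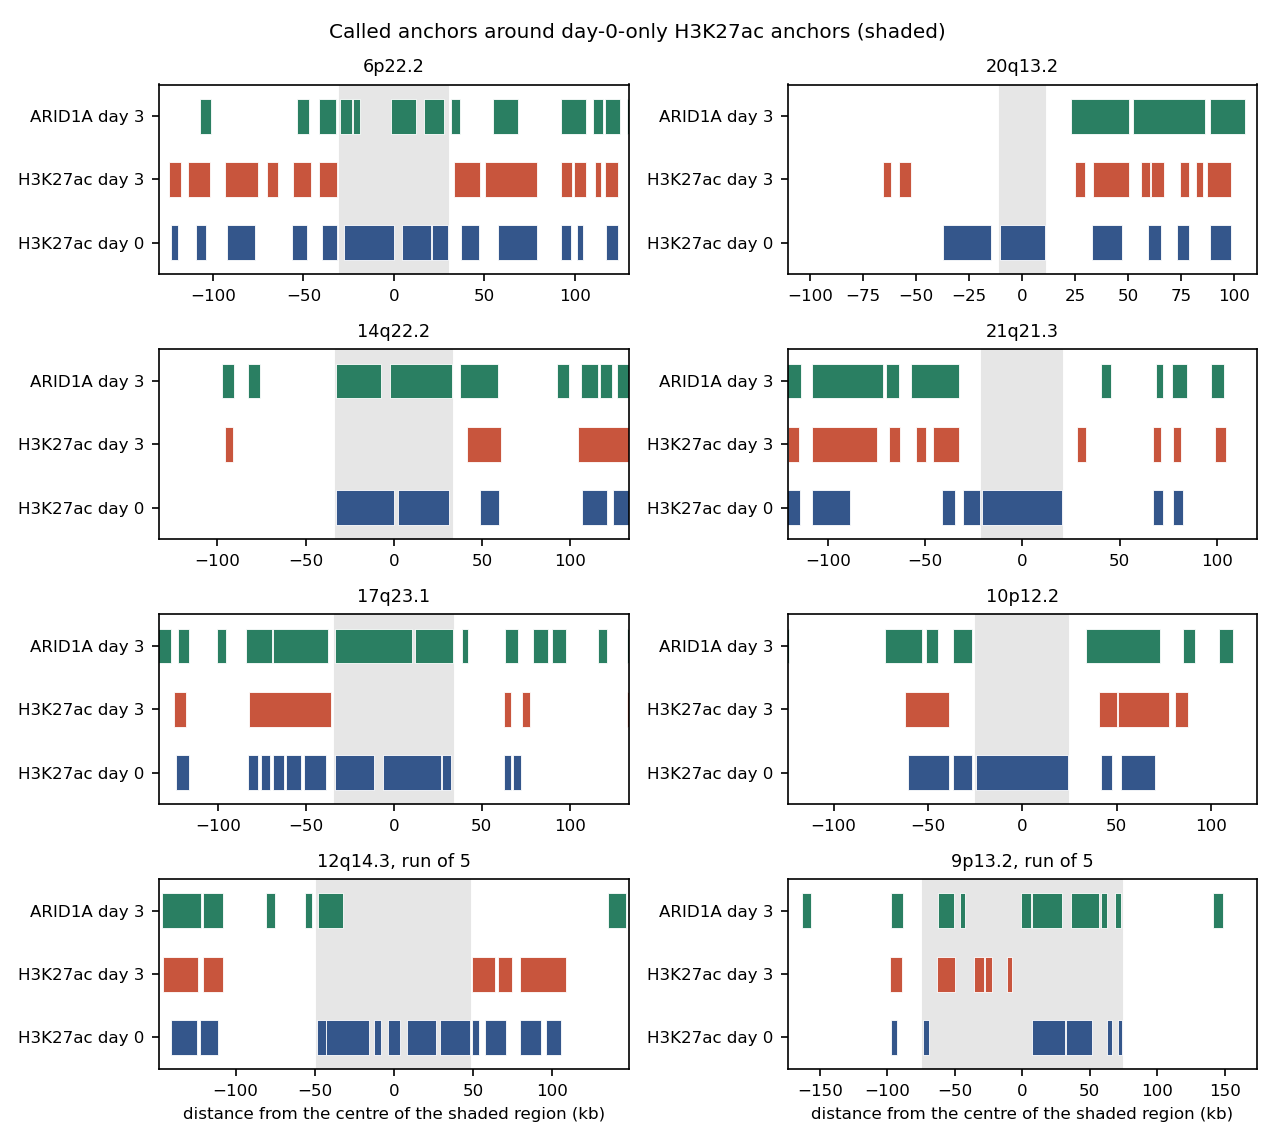
Anchors called in each group (rows, ARID1A day 3, H3K27ac day 3, H3K27ac day 0) around 8 places, against distance in kb from the centre of the shaded day-0-only region or run. The left column shows the 3 members with an ARID1A anchor and the highest day 0 CPM, the right column the 3 without, and the bottom row the runs of 5 members at 12q14.3 and 9p13.2. No H3K27ac day 3 bar enters a shaded single region, while day 3 bars stand on both sides of it.

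A few members were very different. The member with the highest level lay at 6p22.2 (chr6:26180088-26239704), the band of the main cluster of replication-dependent histone genes, whose products package newly made DNA. It ranked second of all 7658 day 0 regions by CPM. It held 186 and 196 PETs in the ARID1A libraries and 1793 and 1501 PETs in the day 0 H3K27ac libraries. At day 3 no H3K27ac anchor was listed over 64652 bp, from 1364 bp on one side of it to 3672 bp on the other. A second histone-band member, chr6:26019666-26059153, held 37 and 50 ARID1A PETs and 921 and 759 day 0 PETs. No hg19 gene annotation was used here, so genes are named only as known contents of a band, and where they lie relative to an anchor was not determined.

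At 14q22.2, the band of BMP4, a secreted ligand of the BMP family, the member chr14:54635225-54701000 held 557 and 555 ARID1A PETs and 1127 and 880 day 0 PETs. It was called over 60678 bp for ARID1A and 61197 bp at day 0, and no day 3 H3K27ac anchor lay over 132479 bp around it. Its ARID1A loops reached 68 and 59 partner regions, against 28 and 29 for its day 0 loops. Over the whole genome the ARID1A libraries listed 26283 and 26350 anchors, against 8594 and 8558 in the day 0 libraries. The same outline was seen at 17q23.1, the band of VMP1, which acts in autophagy, and of the growth-promoting microRNA gene MIR21. There chr17:57872573-57939256 held 462 and 494 ARID1A PETs and 1050 and 812 day 0 PETs. It was called over 64888 bp for ARID1A and 59864 bp at day 0.

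The next members with ARID1A were also broad. At 1q24.3, the band of the endocytic gene DNM3, chr1:172337798-172402133 was the widest member at 63775 bp and held 174 and 180 ARID1A PETs, against 993 and 764 day 0 PETs. The member at 10p11.23 (chr10:29627848-29684651) held 395 and 358 ARID1A PETs, against 953 and 790 at day 0. The other 4 of the first 10, at 17p11.2, 12q14.2, 18q21.1 and 10p12.31, averaged between 316.9 and 786.7 CPM for ARID1A and between 2329 and 3178 CPM at day 0. The antibodies differ and ARID1A PETs are spread over more anchors, so these CPM levels are given side by side and not compared.

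Among members without ARID1A, the highest level was at 20q13.2, the band of the oncogene ZNF217, often amplified in breast cancer. The region chr20:52221772-52243032 held 916 and 723 day 0 PETs, and its neighbour chr20:52194780-52217568 held 637 and 534. Per kb the first of these had 165.5 and 154.7 CPM and ranked 15 of all day 0 regions. To the right, the lasting anchor chr20:52255237-52282692 carried ARID1A (174 and 197 PETs). Its H3K27ac call spanned 21411 bp at day 3, against 14419 bp at day 0, and its contacts with other lasting anchors differed by a log2 fold of -0.01 ± 0.07 (SE; edgeR adjusted p = 0.885). The nearest day 3 H3K27ac anchor lay 14391 bp from the first member.

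Other members without ARID1A lay at 21q21.3 (chr21:30274620-30315879, 837 and 597 day 0 PETs) and 10p12.2 (chr10:22637475-22686206, 774 and 629). The member at 1p36.12, the band of ID3, an inhibitor of helix-loop-helix transcription factors, was chr1:23870479-23907545 with 721 and 593 day 0 PETs. At 11q12.3, the band of AHNAK, a giant scaffold protein, chr11:62264217-62284752 held 675 and 565. The remaining 5 of the first 10, at 9q21.31, 20q13.2, 1p21.1, 5q21.2 and 12q14.3, averaged between 2315 and 2456 CPM at day 0. Their day 0 replicates differed by more at 1p21.1 (671 and 459 PETs) than at 9q21.31 (651 and 530 PETs).

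**Figure D2:**
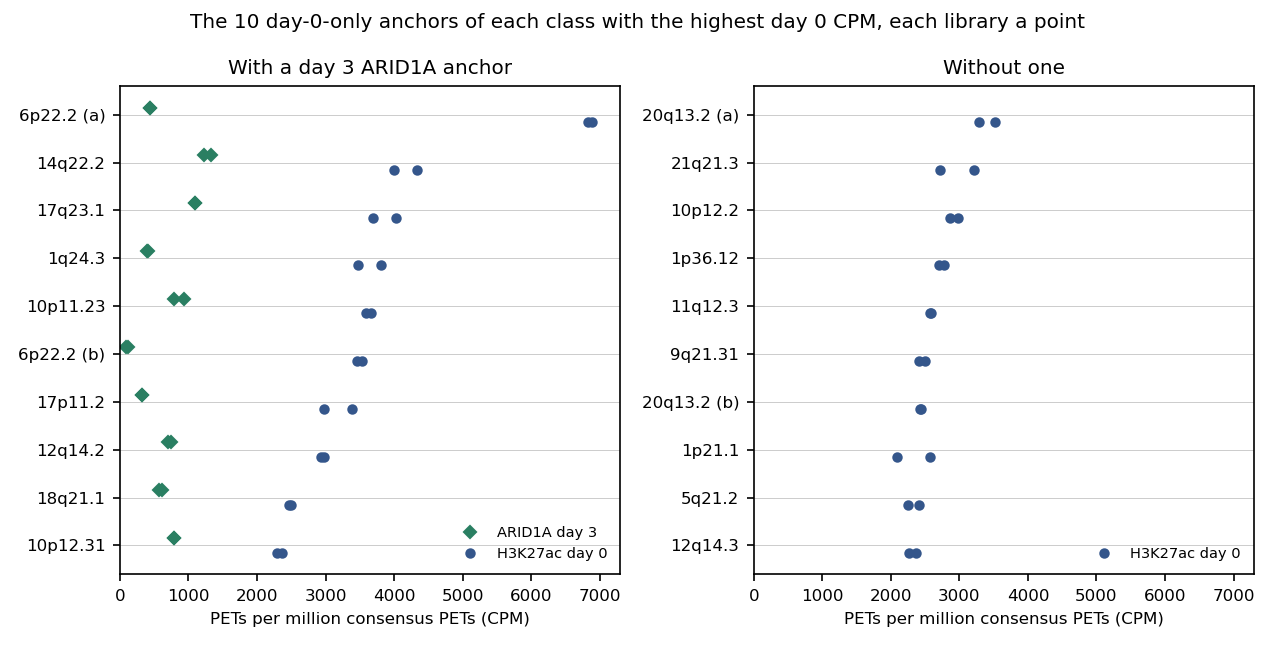
CPM (x axis) in each library at the 10 day-0-only anchors with the highest day 0 CPM, with a day 3 ARID1A anchor (left) and without (right). Diamonds are ARID1A day 3 libraries and circles H3K27ac day 0 libraries; the day 0 points of the 6p22.2 member (a) sit at 6886 and 6828 CPM, and the next highest point, of the 14q22.2 member, at 4328 CPM.

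The PETs were concentrated in broad members. The 46 members over 20 kb wide, a limit chosen after the data were seen, held 50.1% and 49.0% of all member PET ends in the day 0 libraries. The 10 members with the highest level held 20.02% and 19.48%. Per kb, the median was 59.3 CPM in these 46, against 35.5 CPM in the 469 lasting anchors over 20 kb. Without scaling by width, the medians were 2010 CPM in the 46 and 96.7 CPM in all members. Lasting anchors differed in the same direction, with 1014 CPM over 20 kb and 111.8 CPM in all. The share of PET ends held by broad lasting anchors was not worked out. Members made up 11 of the 50 day 0 regions with the highest CPM (22%) and 21 of the first 100 (21%), but 90 of the 1532 regions of 333.1 CPM or more (5.87%) and 165 of the 1531 between 35.83 and 78.84 CPM (10.8%). Of all day 0 regions, members were 668 of 7658. Per kb they were 10 of the first 100, near that share.

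Counted as single anchors, day 0 anchors without day 3 H3K27ac were most frequent among the widest and least frequent at intermediate width. Of day 0 anchors, 29.2% over 40 kb (7 of 24), 18.7% of 30 to 40 kb and 10.9% of 20 to 30 kb lay in a merged region without a day 3 H3K27ac anchor, against 3.32% of 10 to 20 kb and 8.36% up to 5 kb. By direct overlap of single anchors, a measure added after the data were seen, the shares were 33.3% over 40 kb (8 of 24), 19.8% at 30 to 40 kb, 12.2% at 20 to 30 kb, 4.12% at 10 to 20 kb and 9.59% up to 5 kb. Counted as merged regions by day 0 called width, 265 members stood beside 2530 lasting anchors up to 5 kb. The numbers were 28 and 948 at 10 to 20 kb, 29 and 395 at 20 to 40 kb, and 17 and 74 over 40 kb. In that count the members' share was highest over 40 kb, but at 20 to 40 kb it lay below that up to 5 kb. The reverse quantity, day 3 H3K27ac anchors in merged regions without a day 0 anchor, was lowest among wide anchors: 71.3% up to 5 kb, 22.7% at 10 to 20 kb, 0.662% at 30 to 40 kb and 2.04% over 40 kb. A smaller upturn was also seen between the day 3 groups, which shared the treatment. Day 3 H3K27ac anchors without ARID1A were 6.61% at 10 to 20 kb and 16.3% over 40 kb, with intervals that do not overlap, and ARID1A anchors without day 3 H3K27ac were 5.28% at 30 to 40 kb and 9.29% over 40 kb, with intervals that do. Whether the anchor calling had a part in the upturn was not tested. The intervals in the plot by width are 95% Wilson intervals, which cover counting error only, and anchors are not replicates.

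**Figure D3:**
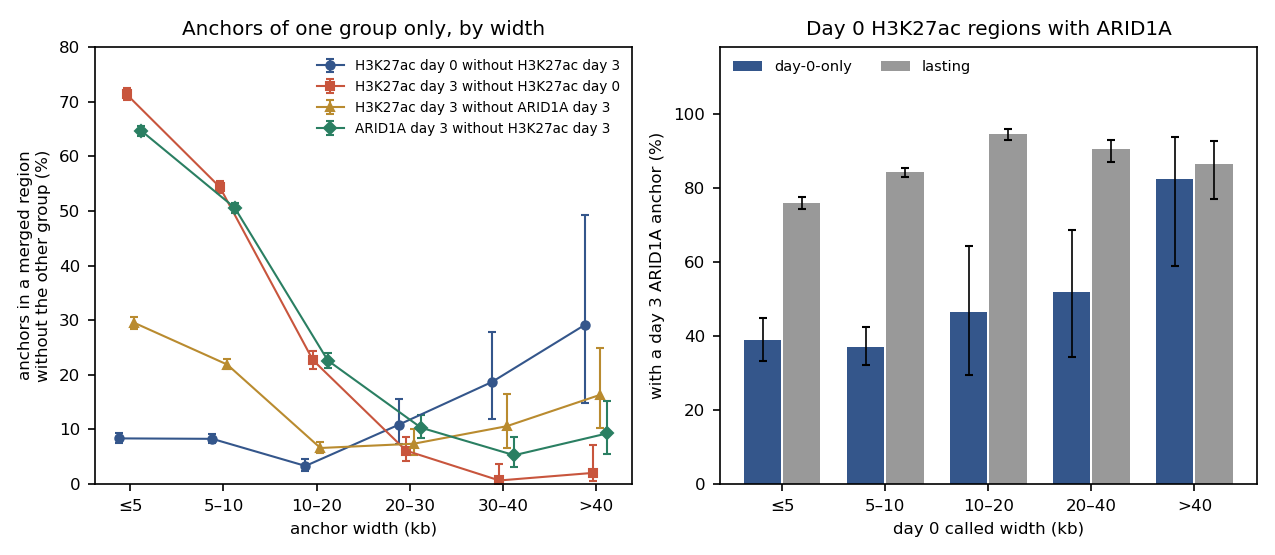
Left, percent of anchors of one group that lie in a merged region with no anchor of another group, by anchor width in kb; right, percent of day 0 H3K27ac regions with a day 3 ARID1A anchor, day-0-only (blue) and lasting (grey), by day 0 width in kb. Bars are 95% Wilson intervals; on the left the blue line is lowest at 10 to 20 kb (3.32%) and highest over 40 kb (29.2%), and on the right the day-0-only bars lie below the lasting bars in each class, with overlapping intervals over 40 kb.

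Around the 46 broad members, day 3 H3K27ac anchors lay at distances of the same order as around all members (median 12426 bp). The nearest day 3 H3K27ac anchor was 162 to 59507 bp away (median 14773 bp), and 39 of the 46 had one within 100 kb on both sides. The stretch without a day 3 anchor includes the member itself, so for these members the rule alone makes it wider than 20 kb. It had a median of 96188.5 bp, was at least 58122 bp and was not set against that of other regions.

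Some members stood next to each other. With gaps of up to 100 kb allowed, the 668 formed 545 runs, of which 449 were single members. More than 1 member stood in 96 runs (219 members in all), and 20 held 3 or more. Runs of other day 0 regions were not counted, so whether members stand closer together than those was not tested. The run with the highest signal of those with 5 members lay at 12q14.3 (chr12:66203239-66299778), the band of HMGA2, a chromatin protein of embryonic and tumour cells, and of MSRB3. All 5 members together held 139 and 134 ARID1A PETs and 1226 and 1010 day 0 PETs, and no day 3 H3K27ac anchor lay within it. Only the leftmost member had an ARID1A anchor, over 15968 bp of a day 0 width of 31937 bp. A pair of members lay on the other side, chr12:65896149-65915707 (522 and 388 day 0 PETs) and chr12:65918088-65933262 (617 and 497).

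A lasting anchor with more H3K27ac contacts at day 3 lay between the run and the pair. The lasting anchor chr12:65976658-66059233 had a called width of 75866 bp at day 3, against 13651 bp at day 0. In loops between anchors called at both times it held 4026 and 4156 CPM in day 3 libraries, against 632.7 and 571.6 CPM in day 0 libraries, a log2 fold of 2.76 ± 0.08. At day 0, 157 of its 397 PETs (39.5%) had gone to day-0-only anchors. The next lasting anchor, chr12:66105039-66143732, rose by 0.61 ± 0.07 (edgeR adjusted p = 2.5e-14) and lay 59507 bp from the run. In all, 9 of the 22 day 0 regions of band 12q14.3 were day-0-only (40.9%, interval 23.3 to 61.3%), beside 668 of 7658 in the genome. The band was singled out for its run, a choice that the interval does not cover. Shares were similar at 9q34.3 (41.7%) and 9p13.2 (40%).

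The other run of 5 was at 9p13.2 (chr9:37924781-38072241), with 253 and 256 ARID1A PETs and 526 and 473 day 0 PETs. ARID1A anchors covered 4 of its 5 members, and 4 day 3 H3K27ac anchors lay between its members rather than on them. At 11q12.3 a run of 3 (chr11:62222953-62284752) held 1416 and 1199 day 0 PETs and no ARID1A. At 3p13, the band of the pigment-cell factor MITF, a run of 4 (chr3:69799654-69869528) held 171 and 195 ARID1A PETs, all in its largest member, against 665 and 496 day 0 PETs. By band, most members lay at 17q25.3 (12 of 55 day 0 regions), then 19p13.3 (10 of 75) and 9q34.3 (10 of 24).

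ARID1A was listed at fewer day-0-only than lasting anchors. An ARID1A anchor overlapped 39.97% of members (267 of 668, Wilson 95% interval 36.3 to 43.7%) and 82.9% of lasting anchors (5797 of 6990, 82.0 to 83.8%). In width classes the shares were 38.9% and 75.8% up to 5 kb, 37.1% and 84.2% at 5 to 10 kb, 46.4% and 94.5% at 10 to 20 kb, and 51.7% and 90.4% at 20 to 40 kb, members first. Over 40 kb they were 82.4% (14 of 17) and 86.5% (64 of 74), with overlapping intervals. With each anchor overlapped directly, without merging, the shares were 48.7% of 782 day-0-only and 82.4% of 7881 lasting anchors. Members with ARID1A had a median of 31 and 29 day 0 PETs, against 20 and 18 for members without it. Lasting anchors differed in the same direction, with 32 and 27 against 16 and 14.

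PET counts at the members with ARID1A were compared by a fit across all regions called for both ARID1A at day 3 and H3K27ac at day 0. Each region's PETs were summed over loops whose 2 anchors were both called in both groups, and edgeR's quasi-likelihood test gave Benjamini-Hochberg adjusted p-values over 4595 regions. This fit sets a factor against a histone mark, so a fold states the unequal distribution of PETs over the genome and no change of one signal. Of the 267 members 214 reached the minimum of 10 PETs in 2 libraries. ARID1A was higher at 51 of them, beside 31.1% of all regions, and lower at 73, beside 31.3% of all regions. As shares that was 23.8% higher and 34.1% lower, with a median log2 fold of -0.23 in members and -0.05 in all regions. The day 0 libraries that chose the members also enter this fit.

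Width went with these folds. Over the 214 members the ratio of ARID1A to day 0 called width had a Spearman rho of 0.66 with the log2 fold, a description over regions of the same 4 libraries. That ratio had a median of 1.15 in members and 1.33 in lasting regions. With only regions of similar width (within 1.5 times), 29 members were higher (22.0%) and 22 lower (16.7%) of 132, beside 25.7% and 23.3% of all 2331 such regions, and the medians were 0.01 and -0.06. Scaled by library totals instead, the median of all regions shifted by -1.84, and 2 members were higher (0.935%) and 187 lower (87.4%), beside 4.29% and 83.9% of all regions. Without day 0 replicate 1 the median log2 fold was -0.31 in members and -0.01 in all regions. Without day 0 replicate 2 these medians were -0.15 and -0.01. DESeq2 called 29 members higher (13.6%) and 34 lower (15.9%), beside 21.7% and 16.8% of all regions.

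**Figure D4:**
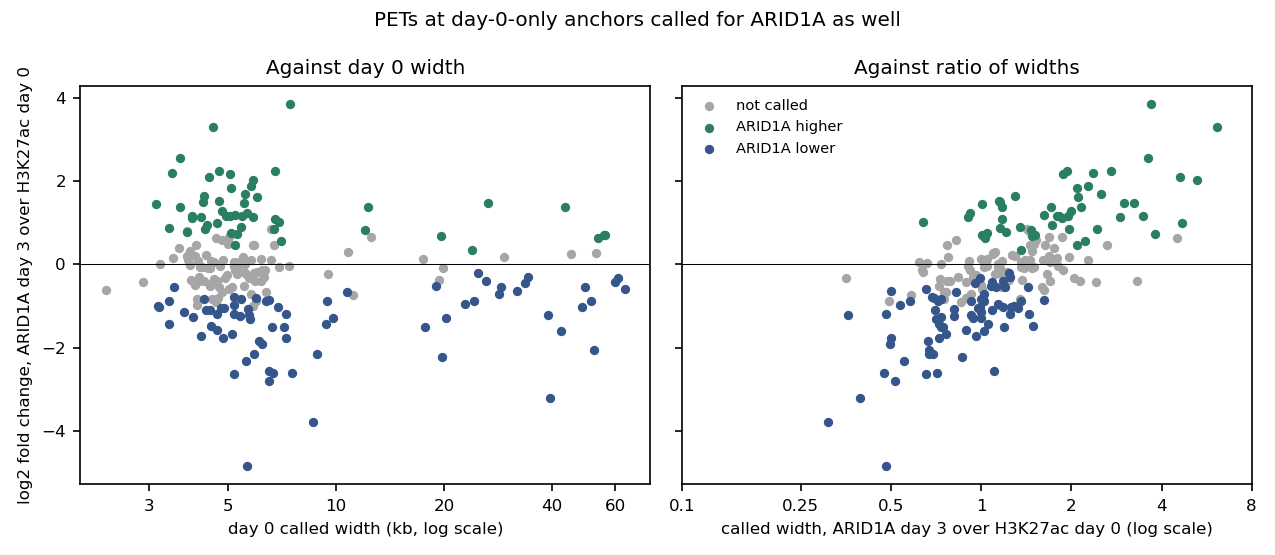
Log2 fold change of PETs, ARID1A day 3 over H3K27ac day 0 (y axis), at the 214 day-0-only anchors tested, against day 0 called width in kb (left) and the ratio of called widths (right), both on log axes. Green points were called higher for ARID1A, blue lower and grey neither; the fold climbs with the ratio of widths, and of the 29 members over 20 kb 20 are blue.

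The broad members leaned to the day 0 side. Of the 29 tested members over 20 kb, 6 were higher and 20 lower for ARID1A (69.0% lower), against 119 higher and 171 lower of 413 lasting regions of that width (41.4% lower). Their median log2 fold was -0.45, and that of the lasting ones -0.11. Up to 10 kb the medians were -0.16 in 172 members and -0.01 in 3111 lasting regions. No test of the difference between these sets was made.

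The lower calls with the smallest p-values were both at 6p22.2. The one at chr6:26180088 had 1935 and 1890 CPM within the fit in ARID1A libraries, against 8473 and 8403 CPM in day 0 libraries. Its log2 fold was -2.05 ± 0.08 (SE; edgeR adjusted p = 5.8e-18). At chr6:26019666 the values were 339.4 and 459.5 CPM for ARID1A and 4016 and 3929 CPM at day 0, a log2 fold of -3.21 ± 0.13 (edgeR adjusted p = 1.7e-17). Neither pair of ARID1A libraries overlapped its day 0 pair. Both were called narrower for ARID1A, at 35011 bp against 52334 bp at day 0 and at 15516 bp against 39487 bp at day 0. Of the other 2 members tested in that band, chr6:26566348-26574442 was higher for ARID1A, by 1.11 ± 0.19 (edgeR adjusted p = 1.3e-05), and chr6:26059498-26069928 had a log2 fold of -0.32 ± 0.20 (edgeR adjusted p = 0.165).

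Lower values were also seen without a narrower call. At 17p11.2 (chr17:17812540-17858874), called over 43570 bp for ARID1A and 42500 bp at day 0, the log2 fold was -1.60 ± 0.10, from 1380 and 1295 CPM for ARID1A and 4038 and 4620 CPM at day 0. At 10p11.23, with widths of 52598 and 51514 bp, it was -0.88 ± 0.08. The other named members, chr5:74339135-74357706 at 5q13.3 (-1.50 ± 0.11) and chr12:122228842-122252040 at 12q24.31 (-1.28 ± 0.12), were called narrower for ARID1A, at width ratios of 0.735 and 0.940, so 4 of the 6 named lower members were narrower. All 4 had edgeR adjusted p-values of 9.1e-10 or less.

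Higher ARID1A values were led by members called much wider for ARID1A. At 12q22 (chr12:95975223-96005021) ARID1A was called over 27832 bp and day 0 H3K27ac over 4539 bp. The level was 1889 and 2005 CPM for ARID1A, against 220.2 and 196.5 CPM at day 0, a log2 fold of 3.31 ± 0.16 (edgeR adjusted p = 6.6e-16). At 3p22.2 (chr3:37143704-37171259) the log2 fold was 3.84 ± 0.23, with called widths of 27555 and 7442 bp. All 6 named members that were higher were also wider for ARID1A, by a ratio between 1.17 and 6.13.

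The smallest of these ratios belonged to a broad member. At 1q31.2 chr1:192501864-192553069, called over 51205 bp for ARID1A and 43646 bp at day 0, had 1663 and 1587 CPM for ARID1A, against 703.4 and 627.4 CPM at day 0. Its log2 fold was 1.37 ± 0.13. The other 3 were chr7:23305242-23326167 at 7p15.3 (1.38 ± 0.11), chr14:69375204-69384736 at 14q24.1 (2.17 ± 0.23) and chr12:54405017-54435825 at 12q13.13 (2.03 ± 0.23), the band of the HOXC cluster of body-patterning genes. With library totals as the scale, 1q31.2 and 7p15.3 turned to -0.48 and -0.47.

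Shares of all contacts were smaller in the ARID1A libraries than in the day 0 libraries both at members with ARID1A and between lasting anchors. PETs touching one of the 267 were 3.42% ± 0.00576 in ARID1A libraries and 9.29% ± 0.0742 in day 0 libraries (SD, n = 2 each). The exact two-sided permutation p was 0.333, the smallest that 2 libraries against 2 can give, so this test cannot pass 0.05. It also uses the day 0 libraries that chose the members. Loops between lasting anchors held 19.3% and 19.5% of PETs in the ARID1A libraries, against 82.5% and 82.8% in the day 0 libraries. Every day 0 anchor is a member or a lasting anchor, so by the rule all day 0 PETs fall to these classes. The ARID1A libraries list far more anchors, over which their PETs are spread, also in regions without a day 0 anchor. The smaller ARID1A shares therefore follow in part from the rule and are not read as a result about the members.

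Between regions called in both groups, most ARID1A loops of these members were also day 0 loops. Of 1905 ARID1A loops of these members whose other end was also called at day 0, 80.2% were listed at day 0 as well. Of their 2725 day 0 loops whose other end was called for ARID1A, 56.0% were listed for ARID1A (Wilson interval 54.2 to 57.9%). Lasting anchors with ARID1A gave 82.7% and 57.6%. The share of day 0 loops was 85.5% among loops of 4 or more day 0 PETs, and between 42.6% and 63.1% with 1 library left out. In the ARID1A libraries, 48.3% and 48.3% of the members' PETs went to lasting anchors, 21.9% and 21.9% to anchors called for H3K27ac at day 3 only, and 26.0% and 26.4% to regions with ARID1A alone.

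The strongest single loop of a member with ARID1A was at 17q23.1. It joined chr17:57872573-57939256 to the lasting anchor chr17:57821923-57870321 and held 276 and 301 ARID1A PETs, against 832 and 634 day 0 PETs. At 14q22.2 the loop from chr14:54635225-54701000 to chr14:54772277-54820580 spanned 128.3 kb and held 154 and 145 ARID1A PETs, against 432 and 331 at day 0. At 1q24.3 the loop to chr1:172288343-172335291 held 562 and 443 day 0 PETs, and that partner had no ARID1A anchor, so the loop was not measured for ARID1A. Among members without ARID1A the strongest loops were at 21q21.3 (299 and 242 day 0 PETs), 1p36.12 (272 and 235) and 5q21.2 (251 and 196).

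The day 3 H3K27ac libraries could be read at the partners of the members. Loops at day 0 tied 3449 of the 6990 lasting anchors (49.3%) to a day-0-only anchor. In the fit of day 3 against day 0 over 6251 anchors called at both times, using only loops between such anchors, 661 of 3333 tested partners were higher at day 3, beside 20.7% of all, and 789 were lower, beside 18.8% of all. As shares this was 19.8% and 23.7%. The median log2 fold was -0.07 for partners, 0.06 for the 2918 other lasting anchors and -0.01 for all. Scaled by library totals, 190 partners were higher and 2108 lower, and the median of all anchors shifted by -0.62.

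Partners were stronger anchors to begin with, at a median of 93 day 0 PETs over both libraries against 40 for the others. Among anchors with 148 to 3501 day 0 PETs, 281 of 674 partners joined by 10 or more PETs were lower (41.7%), against 328 of 882 other lasting anchors (37.2%). The medians there were -0.18 and -0.13. By the share of a partner's day 0 PETs that went to members, the medians were -0.11 at up to 5%, -0.05 at 5 to 20%, -0.01 at 20 to 50% and 0.17 over 50%. That last class held 100 anchors, 21 higher and 19 lower, close to the 20.7% and 18.8% of all.

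Single partners moved far in both directions. At 14q24.1 chr14:68704671-68738466 had 132.9 and 162.9 CPM within the fit at day 3, against 1982 and 1951 CPM at day 0, a log2 fold of -3.72 ± 0.12 (edgeR adjusted p = 1.9e-84). Its called width was 3463 bp at day 3, against 20357 bp at day 0. At 5q13.3 chr5:74296093-74338647, next to the member chr5:74339135-74357706, fell by 2.73 ± 0.09 on the log2 scale, with widths of 5029 and 31092 bp. The remaining 4 named partners that fell, at 15q23, 1p34.3, 3q13.31 and 10q23.33, had log2 folds between -3.02 and -1.36, and each was narrower at day 3.

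All 6 named partners that rose were wider at day 3. Besides 12q14.3 they included chr17:41767192-41817327 at 17q21.31, with 2475 and 2403 CPM at day 3, against 255.9 and 263.8 CPM at day 0, a log2 fold of 3.23 ± 0.11. The highest fold was 3.74 ± 0.20, at chr20:49035937-49072846 in 20q13.13. The folds count PETs over whole merged anchors, so they go with called width. Among anchors whose widths were within 1.5 times of each other, 270 partners were higher and 308 lower of 2163.

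**Figure D5:**
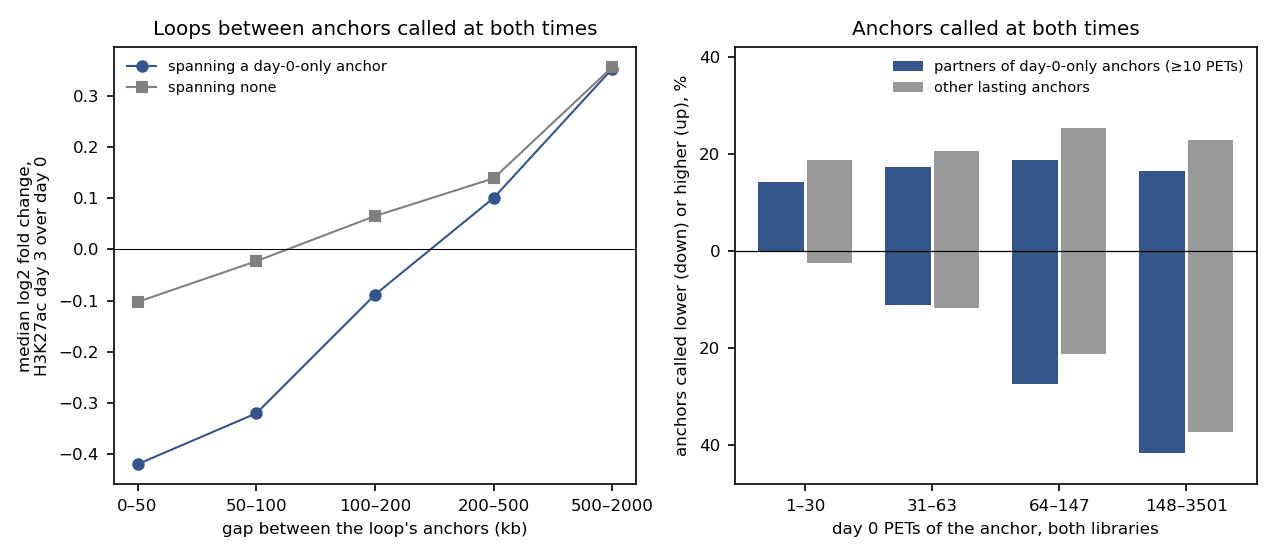
Left, median log2 fold change (H3K27ac day 3 over day 0) of loops between anchors called at both times, by the gap between the anchors in kb, for loops spanning a day-0-only anchor (blue) and none (grey). Right, percent of anchors called higher (above the line) or lower (below) at day 3 by their day 0 PETs, partners in blue and other lasting anchors in grey; spanning loops sit at -0.42 below 50 kb, against -0.10, and meet the others over 500 kb.

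The lasting anchors flanking broad members moved in both directions. Those within 100 kb of a member of over 20 kb, a set added after the data were seen, numbered 63, of which 12 were higher (19.0%) and 19 lower (30.2%) at day 3 with a median of 0.06. Flanks of all members numbered 717, 121 higher (16.9%) and 181 lower (25.2%), with a median of -0.12. Of all anchors tested, 20.7% were higher and 18.8% lower, and the differences from these shares were not tested. At the histone-band member the flanks gave 0.22 ± 0.10 on the right (edgeR adjusted p = 0.060) and -0.29 ± 0.11 on the left (edgeR adjusted p = 0.030). At 14q22.2 a flank rose by 0.79 ± 0.11. At 21q21.3 the left flank rose by 0.86 ± 0.14, and chr21:30362342-30367382 on the right fell by 0.58 ± 0.23 (edgeR adjusted p = 0.028). At 15q23 and 1p36.11 a flank fell by 2.94 ± 0.11 and 2.98 ± 0.22 and was narrower, at 9275 against 35673 bp and 4350 against 17398 bp at day 0. At 17q23.1 the partner in the strongest loop, chr17:57821923-57870321, had a log2 fold of -0.12 ± 0.12 (edgeR adjusted p = 0.438) once its loops to the member were left out. Members took 1466 of its 1717 day 0 PETs (85.4%), so this fold rests on 135 and 116 day 0 PETs. The flank on the other side, chr17:57968727-57977964, fell by 0.80 ± 0.23 (edgeR adjusted p = 0.0027).

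Loops that cross a day-0-only anchor, with both ends in lasting anchors, were compared with the rest of 16642 loops. Of 3998 crossing loops 248 were higher at day 3 (6.20%), beside 8.35% of all, and 184 were lower (4.60%), beside 6.70% of all. Their median log2 fold was 0.10, against 0.06 for the 12644 others, but they were longer, with a median gap of 394.3 kb against 133.8 kb. At matched gaps the median of the crossing loops was lower at short range. With gaps up to 50 kb, 8 of 116 were higher and 27 lower with a median of -0.42, while 476 of 3254 others were higher and 520 lower with a median of -0.10. At 50 to 100 kb the medians were -0.32 and -0.02, at 100 to 200 kb -0.09 and 0.07, and at 500 to 2000 kb 0.35 and 0.36.

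The short-range difference in medians was smaller with anchors of similar width, at -0.24 for 52 crossing loops and -0.10 for 1364 others up to 50 kb. Lower calls up to 50 kb depended on the fit. DESeq2 called 7 of 116 crossing loops lower (6.03%), beside 5.10% of the others. With similar widths it was 1 of 52 (1.92%), beside 4.03%. With libraries thinned to equal PETs it was 1 of 97 (1.03%), beside 1.77%. Library totals gave 48.3% beside 39.3%, and no PET minimum 8.40% beside 4.86%. The number of calls among all crossing loops varied widely between fits. DESeq2 called 21 higher (0.525%) and 40 lower (1.00%), beside 1.86% and 1.65% of all loops. Library totals called 102 higher (2.55%) and 652 lower (16.3%), beside 3.47% and 21.3% of all loops, whose median shifted by -0.57. Medians of crossing loops and of all loops were 0.21 and 0.15 without day 0 replicate 1. They were 0.18 and 0.09 without day 0 replicate 2. Without day 3 replicate 1 they were -0.12 and -0.02, and without day 3 replicate 2 they were -0.09 and -0.06. The difference between crossing and other loops was not tested.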

How the data were processed

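HiChIP was analysed in 6 libraries of G401 cells, grouped by the sample titles. HiC-Pro, Bowtie2 and hg19 are named in the submitters' processing notes. Per the labels, paired reads were sequenced; how anchors and loops were called is not given in the sources used here. The deposited counts are raw whole-number PETs per loop. A further deposited column, between 0 and 1, was read as a p-value or q-value without a header to say which, and served only as a threshold of 0.01 in alternatives. Coordinates are as the files give them.

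Anchors were merged at 1 bp of overlap (Python 3.11.15, pandas 2.3.3) and loops inside one merged region were left out. Counts were tested with edgeR 4.0.16 in R 4.3.3 (quasi-likelihood, TMM, Benjamini-Hochberg adjusted p under 0.05) on regions with 10 or more PETs, or loops with 4 or more, in 2 libraries. DESeq2 1.42.0 was an alternative. The edgeR step was tested on simulated data. Bands come from circlize 0.4.16. The named members are the 10 with the highest day 0 CPM per ARID1A class, 3 loops per class, and 6 regions per direction ranked by p among calls with no overlap between the groups' libraries, apart from flanks and runs, which were chosen after their values were seen. The members and lists were chosen with earlier results of these data known. Gene lists, motifs and sequences were planned and not run, since no hg19 genome or annotation was used here.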

Additional observations from a re-analysis of the deposited data

How the results depend on the processing

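Depth limits these values: the day 0 libraries are the smallest, and a region or loop missing from a list was not measured. The number of members was 386 with anchors merged up to 5 kb apart and 424 at a deposited value of 0.01 or less, against 668, and 662 to 672 with 1 library left out. The ARID1A share was 48.7% by direct overlap and 56.8% for members over 10 kb, and 39.3% to 40.2% with 1 library left out. Replicates of a group listed nearly the same anchors, so leaving out 1 library could hardly change the number of members or the ARID1A share. The share of day 0 loops listed for ARID1A was 48.0% for loops in both libraries, 85.5% for loops of 4 or more PETs, and 42.6% to 63.1% with 1 library left out. The difference in PET share of -5.86 percentage points ranged from -6.76 to -5.44 and kept its direction, which follows in part from the rule.

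For ARID1A day 3 against H3K27ac day 0, members were 51 higher and 73 lower. The counts were 29 and 34 by DESeq2, 2 and 187 with library totals, 29 and 22 with similar widths, 6 and 20 over 20 kb (added after seeing the data), and 29 to 43 and 47 to 56 with 1 library left out. For partners, 661 higher and 789 lower became 352 and 377 by DESeq2, 190 and 2108 with library totals, 270 and 308 with similar widths, 508 and 516 thinned, and 205 and 391 for partners joined by 10 or more PETs. Flanks within 100 kb, chosen after seeing the data, gave 121 and 181, and those of members over 20 kb 12 and 19. With 1 library left out the partners gave 501 to 589 and 539 to 574. For crossing loops, 248 higher and 184 lower became 21 and 40 by DESeq2, 102 and 652 with library totals, 8 and 4 with similar widths, 6 and 13 thinned, 111 and 119 within 200 kb, 228 and 68 with no PET minimum, and 49 to 90 and 77 to 93 with 1 library left out. Where a library was left out, the lone sample is assumed to vary like the other group. As shares, partners were 10.6% higher and 11.3% lower by DESeq2, beside 10.6% and 8.35% of all anchors. Thinned, they were 16.8% and 17.1%, beside 18.2% and 14.1%. Crossing loops were 0.507% and 0.253% with similar widths, beside 1.24% and 1.18% of all loops. Thinned, they were 0.353% and 0.764%, beside 1.42% and 0.848%. Similar widths, thinning and the 200 kb limit test fewer regions or loops. Otherwise the cause was not tested.

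Of 277 repeats over 30 named regions, 265 kept direction and call, 10 lost the call and 2 reversed, 7p15.3 to -0.47 and 1q31.2 to -0.48 with library totals. Regions ranked by p were picked for small p-values in the main fit of the same libraries. Their repeats therefore say little about calls at other regions. Same-numbered libraries did not deviate together (correlations 0.021, 0.0078 and 0.012), so the numbers do not pair them. With a replicate block the counts were 51 and 73 for members, 649 and 771 for partners, and 184 and 163 for crossing loops.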
